A study of Mus musculus with 4 samples.

Results

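Potassium, sodium and pacemaker channels of the heart were examined together with 2 genes of the sodium-potassium pump, as 30 genes listed by name. Potassium channels end the action potential of the heart muscle cell and hold its resting voltage, sodium channels start it, and pacemaker channels carry the inward current that lets nodal cells fire on their own. The sodium-potassium pump keeps up the ion gradients on which all of them depend. In the mouse heart, repolarization rests mainly on fast transient outward and delayed outward potassium currents, and less on the rapid and slow delayed rectifiers that dominate in larger mammals.

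Every probe set whose only gene symbol in the platform annotation is one of the 30 names was taken, which gave 63 of the 45037 probe sets tested and covered 28 of the 30 genes. No probe set was matched in this way to *Scn4a*, a sodium channel of skeletal muscle, or *Hcn4*, the main pacemaker channel of the sinus node, and both were not analysed here. Affymetrix mouse genome arrays were used, 1 for each of 2 Junf/f and 2 Jun delta mu hearts of mice aged 10 weeks, without pressure overload. Both groups carried floxed alleles of *Jun*, the gene of the AP-1 transcription factor c-Jun, on a mixed 129/Ola-C57BL/6 background. Jun delta mu mice also carried Cre recombinase under the muscle creatine kinase promoter, which removes *Jun* from heart and skeletal muscle cells but not from other cells of the heart. Their controls were Cre-negative, so an effect of Cre itself cannot be told apart from that of the deletion. The culture notes given with the samples describe plated ventricular cells, whereas titles, source and methods name hearts, and the samples are treated here as hearts.

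*Jun*, as the mean of its 2 probe sets, had a log2 signal of 8.04 and 8.58 in the Junf/f hearts and of 6.80 and 7.00 in the Jun delta mu hearts, so the labels and the deleted gene point the same way. All 10 markers of cardiac muscle that were looked up lay far above background on every array, and their summed linear signal ranged from 229561 to 230698 in Junf/f and from 227643 to 229147 in Jun delta mu hearts. Markers of atrial muscle were uneven. Their summed signal was 4569 and 6229 in Junf/f hearts, 6093 in Jun delta mu replicate 1 and 9174 in Jun delta mu replicate 2. These linear sums rest mostly on *Nppa*, which the paper measured, as *Anf*, as a hypertrophic marker. It was at 11.88 and 12.40 in Junf/f and at 12.34 and 12.79 in Jun delta mu hearts. On Jun delta mu replicate 2, *Sln*, *Myl7* and *Myl4* reached 8.11, 9.11 and 9.02, against at most 6.03 for any of them on the other arrays. Junf/f replicate 1 correlated less well with the other arrays, at 0.994 to 0.995, than these did with each other, at up to 0.997. Because the samples are bulk tissue, fewer cells of a type and less RNA per cell cannot be told apart.

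Most of these channel genes gave a clear signal in the heart. RMA values, the background-corrected and normalized log2 signals used throughout, carry no detection calls, so 83 probe sets named for olfactory, vomeronasal or taste receptors were taken as a reference for genes that heart muscle hardly uses. The 95th percentile of their mean signals was 5.51. By its brightest probe set, which stands for a gene unless stated otherwise, 22 of the 28 members lay above this level on all 4 arrays, 1 on some arrays and 5 on none, while 63.7% of all 18193 genes had a mean above it. With the 99th percentile, 6.09, as the reference the count above it on all arrays was 20, without *Kcne1* and *Kcnn2*. Members above it on every array included *Kcnd2*, *Kcnd3*, *Kcnip2* and *Kcna5* of the outward currents, *Kcnh2*, *Kcnq1* and *Kcne1* of the delayed rectifiers, both subunits of the acetylcholine-activated channel and all 4 genes of the ATP-sensitive channels. *Kcna4*, *Kcnj2*, *Kcnk2*, *Kcnn3* and *Scn2b* lay below it on every array, and *Kcna2* was above it only on Jun delta mu replicate 2. Probe sets differ in affinity, so this is a position against a reference and not an order of transcript levels, and a signal below it does not show that a channel is absent.

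**Figure D1:**
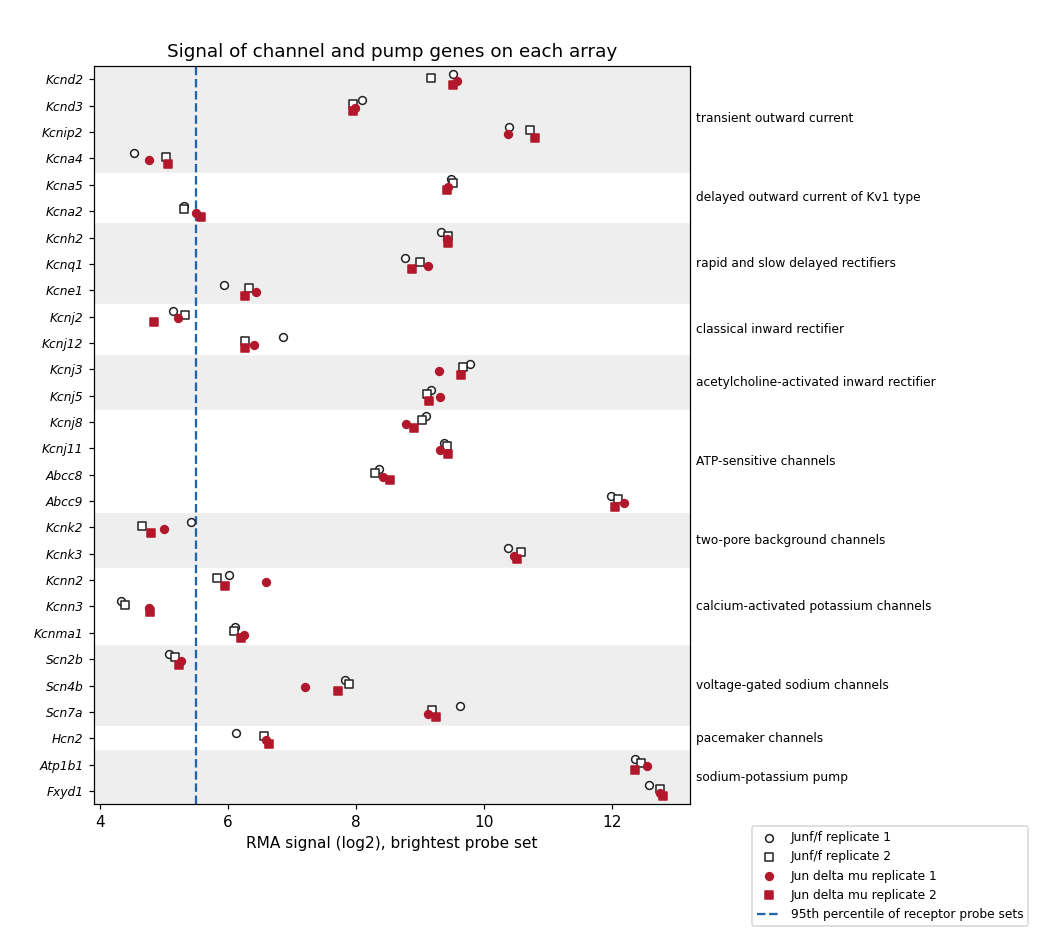
RMA signal (log2, horizontal axis) of the brightest probe set of each of the 28 members on each array, grouped by current type. Open symbols are Junf/f and filled symbols Jun delta mu hearts, with circles for replicate 1 and squares for replicate 2; the dashed line is the 95th percentile of 83 receptor probe sets, at 5.51, and 22 members lie to its right on all arrays.

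Across these currents the differences between genotypes ran from -0.40 to 0.42 in log2 signal by the brightest probe set, but many were imprecise. Their confidence intervals lay within 1.3-fold in either direction for 11 of 28 members and within 1.5-fold for 17. No measured gene of the classical inward rectifier or the pacemaker channels was bounded within 1.5-fold. By limma, none of the 63 probe sets reached an adjusted p under 0.05, nor did any of the 45037 probe sets tested (0%). The smallest adjusted p among members was 0.896. Both probe sets of the deleted gene *Jun* also had an adjusted p of 0.896 by limma, at log2 differences of -1.57 and -1.24. With 2 hearts per group, these adjusted values thus cannot show that a channel is unchanged. At the study's cut-offs, more than 1.3-fold in either direction and p below 0.05 before adjustment, 1 of 63 member probe sets passed (1.59%), that of *Kcnn3*, where 1.53% of all probe sets passed. It was higher in Jun delta mu hearts, and no member probe set was lower past the cut-offs. Of all 45037 probe sets tested, 0.568% were higher past the cut-offs and 0.959% lower. Counted by gene, 1 of 28 passed (3.57%), beside 1.45% of all genes. An unadjusted p under 0.05 by limma was found for 5 of the 63 probe sets, while 5.16% of all probe sets had one. They were 1 each of *Kcnd2*, *Kcnd3*, *Kcna2*, *Kcne1* and *Kcnn3*, all higher in Jun delta mu hearts. Those of *Kcnd2*, *Kcnd3* and *Kcne1* were not the brightest of their gene. Both shares of members past the cut-offs rest on a single gene and stand near the background.

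Of the 28 genes, 18 were above and 10 below 0, with a median difference (Jun delta mu minus Junf/f, log2) of 0.06 and a range of -0.40 to 0.42, beside a median of 0.01 over all genes. Their absolute differences had a median of 0.14, against 0.08 over all genes and 0.10 over 63 other channel and pump genes. As members were chosen with earlier results of these data known, this contrast is not independent evidence. The groups did not overlap in 10 of 28 genes (35.7%), 6 of them higher and 4 lower, and in 33.7% of all genes. Among probe sets the groups did not overlap in 21 of 63 (33.3%), against 33.9% of all. In 21 of the 28 genes the difference was smaller than the gap between both hearts of at least 1 genotype. The precision allowed some bounds among the 22 members above the reference on all arrays. By the brightest probe set, the whole 95% interval of the difference lay within 1.3-fold in either direction for 10 of them and within 1.5-fold for 15. For 6 of the 10, *Kcna5*, *Kcnh2*, *Kcnj11*, *Kcnma1*, *Atp1b1* and *Fxyd1*, this held for every probe set of the gene above the reference on all arrays. Of these 6, only *Kcnj11* and *Atp1b1* had more than 1 such probe set. *Kcna5*, *Kcnh2*, *Kcnma1* and *Fxyd1* had only the brightest, so no second probe set was checked for them. For the other 4, *Kcnd3*, *Kcnj5*, *Abcc9* and *Kcnk3*, another such probe set had an interval that reached beyond 1.3-fold, from 0.705-fold to 1.43-fold in the case of *Kcnk3*.

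**Figure D2:**
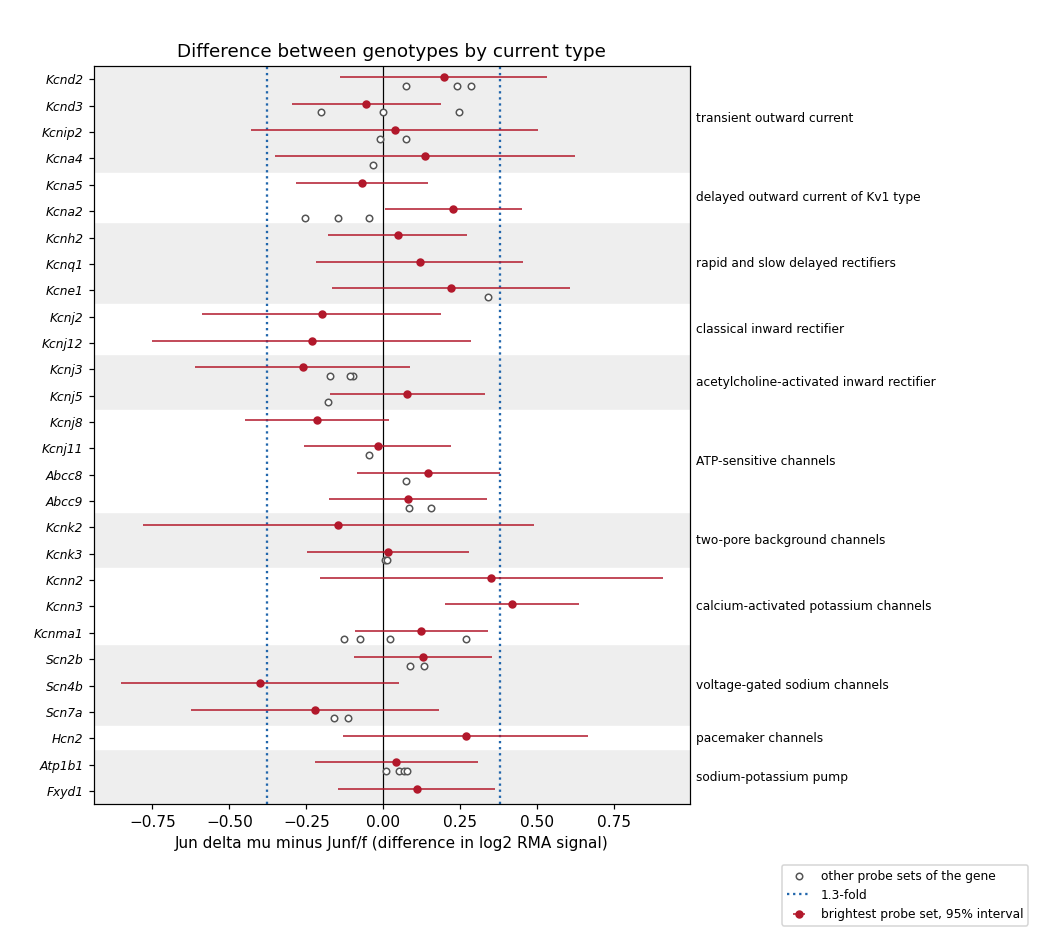
Difference in log2 RMA signal (Jun delta mu minus Junf/f, horizontal axis) of the 28 members by current type. Filled points with bars are the brightest probe set with its 95% interval from limma, open points are a gene's other probe sets, and dotted lines mark 1.3-fold; the interval of Kcna2 and that of Kcnn3 are the 2 that leave out 0.

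*Kcnn3* encodes a small-conductance potassium channel opened by calcium, and its single probe set was at 4.33 and 4.39 in the Junf/f hearts and at 4.77 and 4.79 in the Jun delta mu hearts. Both Jun delta mu hearts lay above both Junf/f hearts. The difference was 0.42 (standard error 0.09, 95% interval 0.20 to 0.64), or 1.34-fold, with an unadjusted p of 0.00388 and an adjusted p of 0.896 from limma, and it was between 0.39 and 0.45 whichever array was left out. The gene is among those the study selected on these same arrays, so its call is not independent evidence. All 4 of its values lay below the reference level of 5.51, and it is no longer tested when the dimmest 40% of probe sets are left out.

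The promoters of the members were searched for AP-1 sites, since c-Jun is the factor removed. RefSeq windows on GRCm38.p6, cut here to the 250 bases before each start, were found for 24 of the 30 names, 27 windows in all. The AP-1 site TGACTCA, sought on both strands, occurred in 1 of these 27 windows (3.7%), and in 4.46% of all 32851 windows of the same length. The related site TGACGTCA, which shares no full match with the other, occurred in none of them and in 1.55% of all windows. The match lies in a window of *Kcnk2*, a background channel, on the minus strand at chr1:189344193-189344442, and begins at position -126 counted from the start. It is shown with the window of *Kcnn3*, the gene past the cut-offs, on the plus strand at chr3:89519914-89520163, which holds neither site. Capitals mark the AP-1 site, and the presence or absence of these letters in such a window says nothing of binding.
Kcnk2: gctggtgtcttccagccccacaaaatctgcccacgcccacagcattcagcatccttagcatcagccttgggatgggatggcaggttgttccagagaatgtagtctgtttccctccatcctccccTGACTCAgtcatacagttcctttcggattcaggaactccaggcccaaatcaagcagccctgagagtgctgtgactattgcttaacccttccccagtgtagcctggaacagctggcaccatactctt
Kcnn3: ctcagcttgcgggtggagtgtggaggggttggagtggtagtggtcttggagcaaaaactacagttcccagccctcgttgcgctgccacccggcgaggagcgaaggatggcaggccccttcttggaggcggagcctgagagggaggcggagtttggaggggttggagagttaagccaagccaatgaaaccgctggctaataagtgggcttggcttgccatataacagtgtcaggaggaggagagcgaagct

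The transient outward current gives the early fast repolarization of mouse heart muscle. Its pore subunit *Kcnd2* was at 9.52 and 9.18 in Junf/f and at 9.58 and 9.51 in Jun delta mu hearts by its brightest probe set. One Junf/f heart thus lay between the Jun delta mu hearts, and the difference was 0.20 (standard error 0.13, adjusted p = 0.898 from limma). It was 0.03 without Junf/f replicate 2 and 0.37 without Junf/f replicate 1. All 4 probe sets of *Kcnd2*, which measure 1 transcript in the same hearts, were above 0, and in 2 of them, at 0.24 and 0.29, the groups did not overlap. The second pore subunit, *Kcnd3*, differed by -0.05 by its brightest probe set and by 0.24 by the next, with the groups apart in the latter. *Kcnip2*, the auxiliary subunit without which this current is lost, was at 10.39 and 10.72 in Junf/f and at 10.38 and 10.81 in Jun delta mu hearts. The hearts of 1 genotype thus differed far more than the genotypes, whose difference was 0.04 (95% interval -0.43 to 0.50). *Kcna4*, the pore of a slower transient current, differed by 0.14 at signals below the reference, and its direction and that of *Kcnip2* changed with the array left out.

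Delayed outward current in mouse heart muscle is carried in part by *Kcna5*, which was at 9.49 and 9.52 in Junf/f and at 9.45 and 9.43 in Jun delta mu hearts. The difference was -0.07 (95% interval -0.28 to 0.15), small although the groups did not overlap. *Kcna2*, a related subunit better known from nerve, was at 5.32 and 5.31 against 5.50 and 5.58. Its groups were also apart, with a difference of 0.23 (standard error 0.09, adjusted p = 0.896 from limma) that stayed below 1.3-fold. Its 3 dimmer probe sets pointed the other way, at -0.25, -0.15 and -0.05, and the mean over all of its probe sets differed by -0.05.

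The rapid and slow delayed rectifiers are the channels best known from inherited long QT syndrome in people. *Kcnh2*, the pore of the rapid current, was at 9.34 and 9.44 in Junf/f and at 9.42 and 9.45 in Jun delta mu hearts, a difference of 0.05. *Kcnq1*, the pore of the slow current, was at 8.77 and 9.00 against 9.13 and 8.88, a difference of 0.12. For both genes the groups overlapped. *Kcne1*, which slows the opening of *Kcnq1* channels, was at 5.94 and 6.33 against 6.44 and 6.27 by its brightest probe set, a difference of 0.22. By the other probe set it was at 5.77 and 5.80 against 6.22 and 6.02, a difference of 0.34 (standard error 0.11, adjusted p = 0.896 from limma) with the groups apart and below 1.3-fold. Without Junf/f replicate 2 the brightest probe set was at 0.42 and past the cut-offs, and without Junf/f replicate 1 it was at 0.02. All 4 probe sets of the group were above 0, and none passed on all 4 arrays.

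Inward rectifiers set the resting voltage. *Kcnj2*, the main pore of the classical inward rectifier in ventricle, was at 5.14 and 5.33 in Junf/f and at 5.22 and 4.84 in Jun delta mu hearts, below the reference throughout, with a difference of -0.20 (95% interval -0.59 to 0.19). Jun delta mu replicate 2 was the lowest, and the difference was -0.0095 without it and -0.39 without Jun delta mu replicate 1. *Kcnj12*, its close relative, was at 6.87 and 6.26 against 6.40 and 6.26. Junf/f replicate 1 was high and the other hearts were alike, so that the difference of -0.23 (95% interval -0.75 to 0.29) became 0.07 without it and -0.54, past the cut-offs, without Junf/f replicate 2. The acetylcholine-activated channel of atrial and nodal cells is built from *Kcnj3* and *Kcnj5*. *Kcnj3* was at 9.79 and 9.67 against 9.29 and 9.64, lower in both Jun delta mu hearts, with a difference of -0.26 (standard error 0.14, adjusted p = 0.896 from limma). Its 4 probe sets were all below 0, and the brightest was at -0.44 and past the cut-offs without Jun delta mu replicate 2 and at -0.09 without Jun delta mu replicate 1. *Kcnj5* was at 9.17 and 9.12 against 9.31 and 9.14, a difference of 0.08, and at -0.18 by its dimmer probe set. Of the Jun delta mu hearts, replicate 2 had the higher atrial marker sum and the higher signal of *Kcnj3*, but the lower signal of *Kcnj5*. Over all 4 arrays *Kcnj3* was highest on Junf/f replicate 1, where the atrial marker sum, which rests mostly on *Nppa*, was lowest, at 4569. The part of atrial tissue in these values was not tested.

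Channels closed by ATP link the energy state of the cell to its voltage. *Kcnj8*, the pore form found in vascular smooth muscle and pericytes, was at 9.09 and 9.04 in Junf/f and at 8.79 and 8.91 in Jun delta mu hearts. Both Jun delta mu hearts were lower than both Junf/f hearts, and the difference was -0.22 (standard error 0.09, 95% interval -0.45 to 0.02, adjusted p = 0.896 from limma). It lay between -0.28 and -0.16 whichever array was left out. *Kcnj11*, the pore form of heart muscle, was at 9.38 and 9.42 against 9.32 and 9.45, a difference of -0.02. The regulatory subunit *Abcc9* was at 11.99 and 12.10 against 12.20 and 12.05, a difference of 0.08 that ranged from 0.0085 to 0.15 with the array left out. Its relative *Abcc8*, known from atrial muscle and the pancreatic beta cell, was at 8.36 and 8.31 against 8.42 and 8.53, a difference of 0.15 with the groups apart. Markers of smooth muscle and pericytes moved in part with *Kcnj8*: 8 of 10 were below 0, with a median of -0.10, and *Cnn1* alone passed the cut-offs, at -0.67. Their summed linear signal was 20479 and 20548 in Junf/f and 19187 and 20461 in Jun delta mu hearts, lowest where *Kcnj8* was lowest, while the pericyte marker *Rgs5* differed by -0.02. The part of these cells in the value of *Kcnj8* was not tested.

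Among background channels with a tandem pore, *Kcnk3*, an acid-sensitive channel, was at 10.38 and 10.58 in Junf/f and at 10.47 and 10.53 in Jun delta mu hearts. Its 3 probe sets differed by 0.01 to 0.02. *Kcnk2*, a channel opened by stretch, was at 5.43 and 4.66 against 5.00 and 4.80 and below the reference. The Junf/f hearts enclosed both Jun delta mu hearts, and the difference of -0.15 had a 95% interval of -0.78 to 0.49, the widest of the 28 members. It was 0.24 without Junf/f replicate 1 and -0.53, past the cut-offs, without Junf/f replicate 2.

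Calcium-activated potassium channels were all above 0 by their brightest probe sets. *Kcnn2*, a small-conductance channel found in atrial muscle among other tissues, was at 6.02 and 5.83 in Junf/f and at 6.60 and 5.95 in Jun delta mu hearts. Jun delta mu replicate 1 alone was high, and the groups overlapped. The difference of 0.35 (standard error 0.22, 95% interval -0.21 to 0.91, adjusted p = 0.896 from limma) was 0.03 without that heart and 0.68, past the cut-offs, without the other. *Kcnma1*, the large-conductance channel of smooth muscle, was at 6.10 in both Junf/f hearts and at 6.25 and 6.20 in the Jun delta mu hearts, a difference of 0.12. Its 4 dimmer probe sets lay between -0.13 and 0.27, and all of their values were below the reference.

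Voltage-gated sodium channels open the action potential, and their beta subunits tune gating and placement in the membrane. *Scn4b*, such a beta subunit, had the most negative difference of the members. It was at 7.83 and 7.89 in Junf/f and at 7.20 and 7.72 in Jun delta mu hearts, lower in both of the latter, with Jun delta mu replicate 1 lowest by far. The difference was -0.40 (standard error 0.18, 95% interval -0.85 to 0.05, adjusted p = 0.896 from limma), or 0.758-fold, and it did not pass the cut-offs. It was -0.66 and past them without Jun delta mu replicate 2, and -0.14 without Jun delta mu replicate 1. *Scn2b*, another beta subunit, was at 5.08 and 5.17 against 5.26 and 5.24, below the reference, with a difference of 0.13, and its 3 probe sets were all above 0. *Scn7a*, an atypical sodium channel that senses extracellular sodium and is known from glia and nerve, was at 9.63 and 9.19 against 9.13 and 9.25. Its 3 probe sets were all below 0, but the brightest was at -0.22 on all arrays, at -0.44 and past the cut-offs without Junf/f replicate 2, and at -0.00 without Junf/f replicate 1. Of 10 markers of nerve and glia, 9 were above 0 in difference, with a median of 0.13 and a summed signal of 565 and 678 in Junf/f and of 643 and 658 in Jun delta mu hearts. As 6 of them lay below the reference on every array, these sums rest on few genes, and the part of nerve and glia in the value of *Scn7a* was not tested.

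*Hcn2*, a pacemaker channel that is also found in ventricle, was at 6.13 and 6.57 in Junf/f and at 6.60 and 6.64 in Jun delta mu hearts. The groups did not overlap, but Junf/f replicate 1 stood apart and the other 3 hearts were close together. The difference was 0.27 (standard error 0.16, 95% interval -0.13 to 0.66, adjusted p = 0.896 from limma). It was 0.05 without Junf/f replicate 1 and 0.49, past the cut-offs, without Junf/f replicate 2. Markers of the conduction system had a median of -0.02, with 4 of 9 above 0, and *Isl1*, *Shox2* and *Vsnl1* lay below the reference throughout. The groups did not overlap in 3 of 9 (33.3%), all higher in Jun delta mu hearts, against 33.7% of all genes. Their summed signal was 954 and 878 in Junf/f and 931 and 925 in Jun delta mu hearts. It rests largely on *Smoc2*, the brightest of them, at 8.98 and 8.83 against 8.90 and 8.87.

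The pump genes hardly differed. *Atp1b1*, the beta subunit that brings the pump to the membrane, was at 12.37 and 12.46 in Junf/f and at 12.55 and 12.37 in Jun delta mu hearts, a difference of 0.04 (95% interval -0.22 to 0.31). Its 5 probe sets lay between 0.01 and 0.08. *Fxyd1*, or phospholemman, which restrains the pump until it is phosphorylated, was at 12.58 and 12.76 against 12.75 and 12.80, a difference of 0.11 (95% interval -0.15 to 0.36). It was 0.019 without Junf/f replicate 1 and 0.20 without Junf/f replicate 2.

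**Figure D3:**
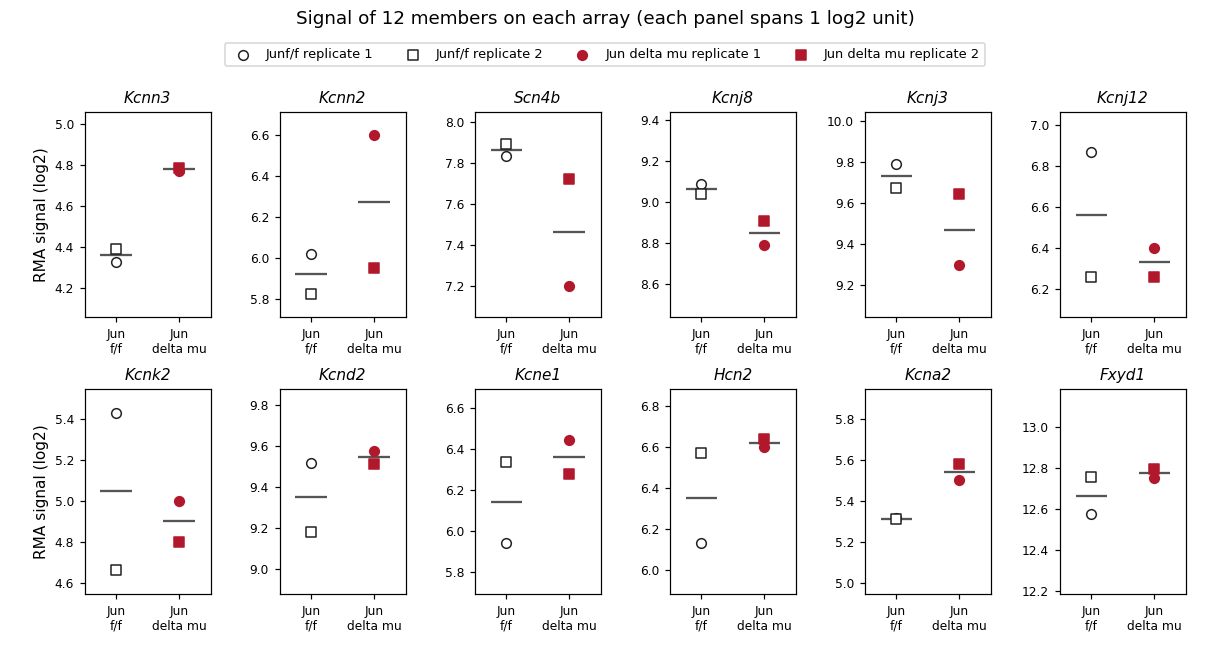
RMA signal (log2, vertical axis, 1 unit per panel) of 12 members on each array, with lines at the group means. Open symbols are Junf/f and filled symbols Jun delta mu hearts, with circles for replicate 1 and squares for replicate 2; both Jun delta mu hearts lie above both Junf/f hearts for Kcnn3, Kcna2 and Hcn2 and below them for Scn4b, Kcnj8 and Kcnj3.

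Other genes of the same channels and of the pump were looked up as a list of 74, of which 63 had a probe set of their own and the others were not analysed here. None of the 63 was higher past the cut-offs and none was lower, where 0.665% and 0.786% of all genes were. By limma 1 of them had an unadjusted p under 0.05, *Scn3a* at -0.38, with signals below the reference, while 830 of all 18193 genes had one. The median difference was 0.02, with 37 above and 26 below 0, and the groups did not overlap in 19 (30.2%), against 33.7% of all genes. The differences farthest from 0 in each direction, picked out after their values were seen, were -0.46 for *Kcna1*, a channel of nerve axons at 6.24 and 5.59 against 5.43 and 5.47, and 0.37 for the pacemaker channel *Hcn3* at 5.29 and 6.05 against 6.03 and 6.05. In both, Junf/f replicate 1 was far from the other hearts, as it was for *Hcn2*. *Fgf13* and *Gpd1l*, which regulate the cardiac sodium channel, were bright and close to 0, at 0.05 and -0.04.

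Markers of other cells that a heart sample can hold were looked up as well. Those of fibroblasts had a median difference of 0.06, with 7 of 10 above 0 and *Pi16* past the cut-offs at 0.45. Those of endothelium had a median of -0.08, with 8 of 10 below 0 and none past the cut-offs. The groups did not overlap in 5 of 10 fibroblast markers, all higher in Jun delta mu hearts, and in 6 of 10 endothelial markers, all lower. Among all genes the share was 33.7%. By limma, 3 of the 10 fibroblast markers and 1 of the 10 endothelial ones had an unadjusted p under 0.05, as had 830 of all 18193 genes. Those of skeletal muscle had a median of -0.06 over 12 genes. In that list *Casq1*, a calcium store protein, passed at -1.52, and 7 genes, among them the fast myosins *Myh1*, *Myh2* and *Myh4*, lay below the reference on every array. Atrial markers had a median of 0.42, with 7 of 9 above 0 and none past the cut-offs. The part of these cells in the channel values was not tested.

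**Figure D4:**
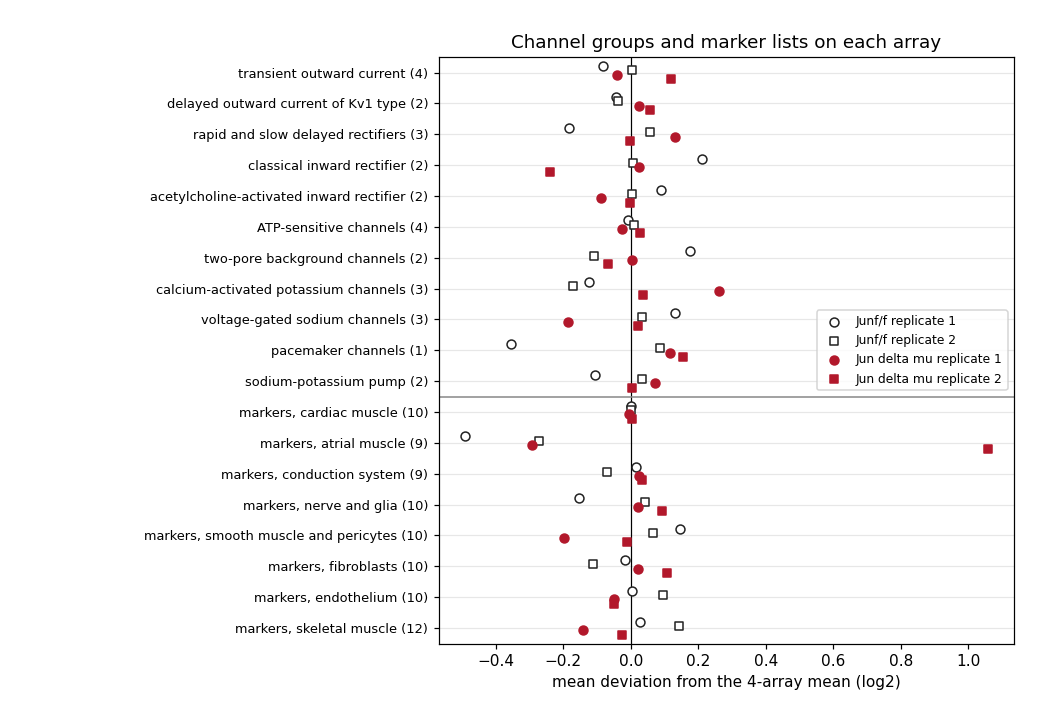
Mean deviation from the 4-array mean (log2, horizontal axis) of each channel group and each marker list on each array, with the number of genes measured in brackets. Open symbols are Junf/f and filled symbols Jun delta mu hearts, with circles for replicate 1 and squares for replicate 2; atrial markers stand at 1.06 on Jun delta mu replicate 2 and between -0.49 and -0.27 on the other arrays, and the channel value farthest from 0 is -0.35, for the 1 pacemaker gene on Junf/f replicate 1.

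The count of members past the cut-offs depended on single arrays. It was also 1 probe set with the methods' t-test, by which 0.444% of all probe sets passed, and rose to 8 without Junf/f replicate 2 and to 5 without Jun delta mu replicate 2, where 7.66% and 1.64% of all probe sets passed.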

How the data were processed

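Hearts of 2 Junf/f and 2 Jun delta mu mice were profiled, 1 array each, without pooling. The deposited values of 45101 probe sets were log2 signals that the authors obtained by RMA. The methods name the Affymetrix AGCC software and the submitters' notes RMA in the R package oligo, with versions not given in the sources used here. After removal of 64 Affymetrix controls, no filter was set. limma 3.58.1 (R 4.3.3) fitted genotype alone to all 45037 remaining probe sets with an empirical Bayes variance, in two-sided tests, and p-values were adjusted over them by Benjamini-Hochberg. The methods name Student's test, which was run as an alternative. The study's cut-offs (above 1.3-fold, unadjusted p under 0.05) were applied to this fit. In the annotation 34945 of these had 1 symbol, 932 more than 1 and 9160 no symbol. The brightest probe set over all arrays stood for a gene. With 2 arrays per group, 2 residual degrees of freedom limit the precision. Littermates were used, but no source ties single hearts to a litter or batch. Members and lists were chosen with earlier results of these data known. All members were named, with values per array for those past the cut-offs, apart by more than 1.3-fold or largest in their current type, and added for others. Alternatives were the methods' t-test, a replicate block, a robust prior with trend, removal of the dimmest 40%, quantile normalization, median centring, other choices of probe set and leaving out each array. The procedure was tested on simulated data. Figures were drawn with matplotlib 3.10.9.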

Additional observations from a re-analysis of the deposited data

How the results depend on the processing

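*Kcnn3* was the 1 member probe set past the cut-offs with the methods' t-test, the trended robust prior, quantile normalization and median centring, and no member passed without the 40% dimmest probe sets (0), which leaves out *Kcnn3*. With replicate number as a replicate block the count was 1 as well and the block changed no member's call. Over all probe sets 683 passed with the block, against 688 without it. Deviations of same-numbered arrays correlated with r = 0.03 over all probe sets and 0.10 over the 63 of the members. No source says that a number marks a shared litter or day. Leaving out single arrays gave 1 to 8 member probe sets, 1 to 6 members and 0 to 5 partner genes past the cut-offs, and quantile normalization gave 1 partner, *Scn3a*. The members added without Junf/f replicate 2 by their brightest probe sets were *Kcne1*, *Kcnj12*, *Kcnk2*, *Scn7a* and *Hcn2*, and without Jun delta mu replicate 2 *Kcnj3*, *Kcnn2* and *Scn4b*. With single arrays left out, the direction was not kept for *Kcnd3* (-0.13 to 0.020), *Kcnip2* (-0.18 to 0.25), *Kcna4* (-0.11 to 0.38), *Kcnh2* (-0.0038 to 0.097), *Kcnq1* (-0.0087 to 0.25), *Kcnj12* (-0.54 to 0.071), *Kcnj5* (-0.0074 to 0.16), *Kcnj11* (-0.084 to 0.049), *Kcnk2* (-0.53 to 0.24), *Kcnk3* (-0.082 to 0.11) and *Atp1b1* (-0.050 to 0.13). The mean over all probe sets turned *Kcna2* (-0.055) and *Kcnj5* (-0.051). By mean signal 22 members lay above the reference, also with the 99th percentile, the median of all probe sets or Junf/f means alone, and 23 by Jun delta mu means alone; other settings were not run for it. The cause of these shifts was not tested, and signals below the reference limit what can be said of the 5 members there.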
